A study of Caenorhabditis elegans with 8 samples.

Results

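The genes described here are 10 Caenorhabditis elegans genes that act when a dying cell is recognised and swallowed by its neighbours: ttr-52, ced-8, ced-1, psr-1, ced-7, ced-6, ced-2, ced-5, ced-12 and ced-10. They were taken by symbol from the platform annotation of the array, where 17 probe sets named 1 of them and no other gene, out of 22548 probe sets in all. Each gene was represented by the probe set with the highest mean over the 8 arrays, as was each of the 17118 genes on the array, and the remaining probe sets were kept beside it. All 10 symbols were found unchanged in RefSeq (assembly WBcel235). The array's own genome build was not given in the sources used here, so positions are given by chromosome only.

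Total RNA from whole cultures that held every life stage was hybridised to 1-colour Affymetrix arrays. The 4 arrays of the ercc-1 mutant carried RNA of animals deficient in nucleotide excision repair in an N2 background, and 4 arrays of N2, the common wild-type laboratory strain, served as the comparison. Animals of both strains ate Escherichia coli HT115(DE3) carrying pL4440 for 3 to 4 days. The allele of ercc-1 is not named in the labels, and nothing in them says whether each array had a culture of its own, so a p-value here reflects the spread between these arrays, which may be technical.

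A cell that dies by apoptosis in the worm exposes phosphatidylserine, a lipid normally kept on the inner face of the plasma membrane, and a neighbouring cell engulfs it. Genetic work placed the engulfment genes in a pair of partly redundant pathways. In one, the receptor CED-1 acts with the transporter CED-7 and the adaptor CED-6. In the other, CED-2, CED-5 and CED-12 activate the Rac GTPase CED-10, which rearranges actin around the corpse. Germ cells that die after DNA damage in the adult gonad are cleared by the same genes in the surrounding sheath cells.

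None of the 10 engulfment genes changed in the ercc-1 mutant at the threshold used, an adjusted p under 0.05 in limma with Benjamini-Hochberg adjustment over 22548 probe sets. The count was 0 of 10 genes, against 115 of 17118 genes on the array (0.672%), and 0 of the 17 probe sets, against 0.665% of all probe sets. At an unadjusted p under 0.05 the count in this fit was again 0 of 10 genes, where 10.5% of all genes passed. Under some other settings, given at the end, single engulfment genes passed that mark. The log2 differences of the 10 genes, mutant minus wild type, ran from -0.17 for ced-1 to 0.065 for ced-6, with a median of 0.01 beside 0.03 over all genes. The mutant and wild-type values overlapped in all 17 probe sets, while the groups did not overlap in 6.48% of all probe sets and 6.88% of all genes. Of the 10 genes 5 lay above and 5 below wild type, while with the arrays set to a common median, a shift of every difference by -0.09, 0 lay above and 10 below.

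In the main fit, the intervals of these differences bound what the arrays could have missed. For all 10 genes the 95% confidence interval of the log2 difference stayed within a 1.5-fold change in either direction, and for 9 of 10, all but ced-1, within a 1.3-fold change. Over all genes on the array, not matched for brightness, the corresponding shares were 90.0% and 65.3%. Of the 17 probe sets 16 stayed within a 1.5-fold change, the exception being the dimmest of ced-10. Within a 1.3-fold change the count was 13 of 17. The exceptions there were both ced-1 probe sets and both dimmer ones of ced-10, so the narrower bound for ced-10 holds on its brightest probe set only. For ced-1 the log2 difference was -0.26 (SE 0.168) after median centring and -0.27 (SE 0.178) without mutant replicate 1. Both lie below its -0.17 in the main fit, so the bounds for ced-1 depend on the scaling and on single arrays. These intervals rest on 4 arrays per group and cover transcript abundance in the whole culture, in which fewer cells of a type and less RNA per cell cannot be told apart.

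**Figure D1:**
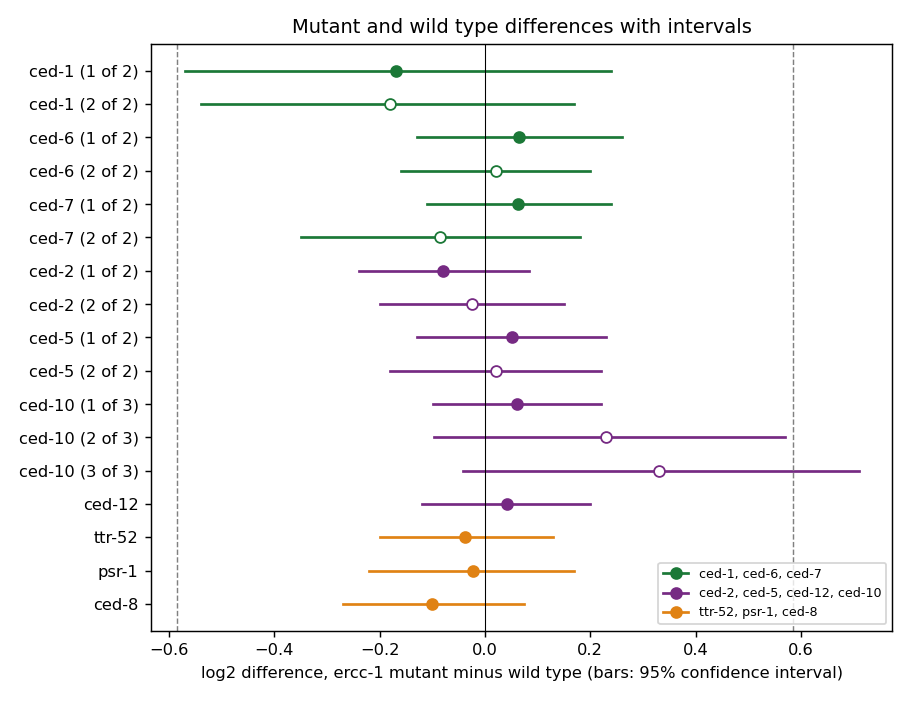
Log2 difference between ercc-1 mutant and wild type (x axis) for each of the 17 probe sets (y axis), with bars for the 95% confidence interval from limma and dashed lines at a 1.5-fold change. Filled points are the probe sets that stand for a gene and open points the further ones. Every interval crosses 0, and the one that passes a dashed line is the dimmest ced-10 probe set.

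The corpse signal was read by ttr-52 and ced-8. TTR-52 is a secreted transthyretin-like protein that binds phosphatidylserine on the corpse and the CED-1 receptor on the engulfing cell. Its transcript (F11F1.7, chromosome III) had 1 probe set, 190940_at, with log2 values of 7.14, 6.98, 7.13 and 7.12 in the mutant (replicates 1 to 4, as in all such series of values here) and 7.09, 7.02, 7.19 and 7.22 in wild type. The groups overlapped, with mutant replicate 2 the lowest and wild-type replicate 4 the highest of the 8 arrays. Mutant minus wild type was -0.038 on the log2 scale (SE 0.0745, adjusted p = 0.926 in limma), with a 95% confidence interval from -0.2 to 0.13, the lower bound allowing at most a 1.15-fold lower level.

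CED-8 is a membrane protein of the XK family that promotes the exposure of phosphatidylserine once the caspase CED-3 has cleaved it. Its probe set, 181701_at (F08F1.5, chromosome X), read 7.82, 7.72, 7.61 and 7.62 in the mutant against 7.92, 7.75, 7.73 and 7.77 in wild type, on the log2 scale. Mutant replicates 2, 3 and 4 lay below every wild-type array, and mutant replicate 1 lay above all wild-type arrays but replicate 1. The log2 difference of -0.1 (SE 0.0777) did not pass in limma (adjusted p = 0.755), nor did the values separate in an exact permutation test (two-sided, 70 ways to split the arrays, p = 0.2). It was -0.19 both after median centring and after quantile normalization, and did not pass there either (adjusted p = 0.372 and 0.354 in limma).

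CED-1 is a single-pass receptor, related to Drosophila Draper and mammalian MEGF10, that gathers around the corpse. Its transcript (Y47H9C.4, chromosome I) was read by 2 probe sets. The brighter one, 173720_at, had values of 9.07, 8.98, 8.84 and 8.16 in the mutant and 9.07, 8.82, 8.92 and 8.91 in wild type. Mutant replicates 1, 2 and 3 lay within the wild-type range, and mutant replicate 4 stood 0.68 below the lowest of them. The other, 189327_s_at, read 8.66, 8.57, 8.43 and 7.96 in the mutant against 8.84, 8.55, 8.37 and 8.59 in wild type, again with mutant replicate 4 lowest, by 0.47.

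The mutant means of ced-1 were thus lowered by 1 array. The group means on the brighter probe set were 8.76 ± 0.413 for the mutant and 8.93 ± 0.104 for wild type (SD over 4 arrays). Their log2 difference was -0.17 (SE 0.179, adjusted p = 0.836 in limma), and 0.033 without mutant replicate 4. For the dimmer probe set it was -0.18 (SE 0.157, adjusted p = 0.783), and -0.034 without that array. A gap as large below the other mutant arrays was seen on mutant replicate 4 for 0.812% of all probe sets at 0.68 and for 2.04% at 0.47.

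Mutant replicate 4 also differed from the other mutant arrays in sperm transcripts. The summed linear signal of 33 sperm genes was 135652 on that array, 79165 to 81830 on mutant replicates 1 to 3 and 40550 to 47787 on the wild-type arrays. These 33 were the measured ones of 44 genes written into the list. Of these genes 19 rose in the mutant at an adjusted p under 0.05 in limma, where 0.532% of all genes rose. In the list 0 fell, and none was listed at 0 on any array. The sums for 6 genes of the gonadal sheath and spermatheca ran from 4481, on mutant replicate 4, to 5023 in the mutant and from 4465 to 4753 in wild type. The part of either list in the low ced-1 values of mutant replicate 4 was not tested.

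**Figure D2:**
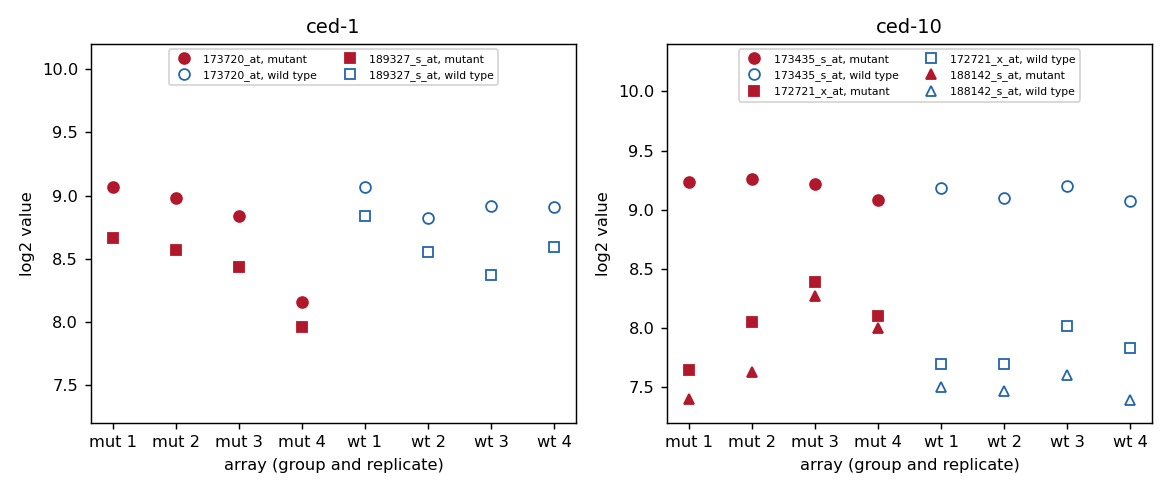
Log2 value (y axis) on each of the 8 arrays (x axis) for the 2 probe sets of ced-1 and the 3 of ced-10, mutant filled and wild type open. Both ced-1 probe sets are lowest on mutant replicate 4, at 8.16 and 7.96, while the brightest ced-10 probe set stays between 9.07 and 9.26 and the dimmer ones reach 8.39 and 8.27 on mutant replicate 3.

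PSR-1 is a phosphatidylserine receptor that signals to CED-5 and CED-12. Its probe set, 183891_at (F29B9.4, chromosome IV), read 9.65, 9.65, 9.87 and 9.91 in the mutant and 9.75, 9.82, 9.89 and 9.71 in wild type. Mutant replicates 1 and 2 lay below all wild-type arrays, and mutant replicate 4 lay above them all. The log2 difference was -0.023 (SE 0.086, adjusted p = 0.967 in limma), with an interval from -0.22 to 0.17.

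CED-7 is an ABC transporter that is needed in both the dying and the engulfing cell. Its transcript (C48B4.4, chromosome III) had 2 probe sets, whose differences had opposite signs. The brighter, 175793_s_at, read 10.51, 10.38, 10.39 and 10.41 in the mutant and 10.52, 10.35, 10.25 and 10.32 in wild type, a log2 difference of 0.062 (SE 0.0772). The dimmer, 193420_s_at, read 9.4, 9.08, 8.91 and 8.98 in the mutant and 9.33, 9.09, 9.04 and 9.25 in wild type, a log2 difference of -0.085 (SE 0.117). Neither passed in limma (adjusted p = 0.862 and 0.881). The distance between them, 0.15 on the log2 scale, did not pass either (exact two-sided permutation test, p = 0.171, adjusted p = 0.742 over 8 pairs of probe sets).

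CED-6 is the adaptor, with a phosphotyrosine-binding domain, that passes the signal on from CED-1. Its probe sets (F56D2.7, chromosome III) lay close together in level and in difference. The one that stands for the gene, 188052_s_at, read 9.75, 9.68, 9.77 and 9.46 in the mutant and 9.65, 9.55, 9.54 and 9.66 in wild type, and 175802_at read 9.7, 9.72, 9.57 and 9.46 against 9.67, 9.61, 9.55 and 9.54. On both, mutant replicate 4 was lower than every other array and mutant replicates 1 and 2 were higher than every wild-type array. The log2 differences were 0.065 (SE 0.0846) and 0.02 (SE 0.0789), with adjusted p = 0.871 and 0.969 in limma.

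In the Rac pathway, CED-2 is an SH2 and SH3 adaptor of the CrkII type. The probe set 175812_at (Y41D4B.13, chromosome IV) read 10.89, 10.93, 10.77 and 10.73 in the mutant, against 10.98, 10.84, 10.9 and 10.92 in wild type, a log2 difference of -0.08 (SE 0.0726, adjusted p = 0.798 in limma). Mutant replicates 3 and 4 were below all wild-type arrays and the other mutant arrays within their range. On the other probe set, 175813_s_at, mutant replicate 3 was instead the highest of all 8 arrays, at 10.91, and the log2 difference was -0.025 (SE 0.0774, adjusted p = 0.959).

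CED-5, of the DOCK180 family, and CED-12, the ELMO orthologue, together form the exchange factor that loads CED-10 with GTP. The ced-5 probe set 191080_s_at (C02F4.1, chromosome IV) read 9.82, 9.63, 9.78 and 9.67 in the mutant, against 9.83, 9.62, 9.58 and 9.66 in wild type, a log2 difference of 0.052 (SE 0.0806, adjusted p = 0.898 in limma). Replicate 1 was the highest array in each group. The second ced-5 probe set, 175635_at, ran from 8.47 to 8.74 in the mutant and from 8.4 to 8.7 in wild type, a log2 difference of 0.02. The ced-12 probe set 174072_at (Y106G6E.5, chromosome I) read 10.02, 9.97, 9.81 and 9.98 in the mutant, against 9.97, 9.86, 9.87 and 9.91 in wild type. Mutant replicate 3 was the lowest of all 8 arrays and the other mutant arrays were level with or above the highest wild-type array, and the log2 difference was 0.042 (SE 0.0711, adjusted p = 0.908).

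CED-10, the worm Rac, is the point where the pathways meet on the actin cytoskeleton. Its transcript (C09G12.8, chromosome IV) was read by 3 probe sets, all with the suffix _s_at or _x_at, which marks probes that can match several transcripts, and the worm genome holds other Rac genes. The brightest, 173435_s_at, read 9.23, 9.26, 9.22 and 9.08 in the mutant and 9.18, 9.1, 9.2 and 9.07 in wild type, a log2 difference of 0.06 (SE 0.0703, adjusted p = 0.85 in limma). All 8 arrays lay within 0.19 of each other on this probe set. In all, 9 of the 17 probe sets carry these suffixes, among them both of ced-7 and those standing for ced-5 and ced-6. Without such probe sets 8 of the 10 genes were still measured, and ced-7 and ced-10 were not.

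The dimmer ced-10 probe sets varied more. The probe set 188142_s_at read 7.4, 7.63, 8.27 and 8 in the mutant, against 7.5, 7.47, 7.6 and 7.39 in wild type, so that mutant replicates 2, 3 and 4 were above every wild-type array and mutant replicate 1 was among them. Its log2 difference of 0.33 (SE 0.168, 95% confidence interval -0.042 to 0.71) was the farthest from 0 of the 17 probe sets and did not pass (adjusted p = 0.573 in limma). Leaving out mutant replicate 1 gave 0.48, and leaving out mutant replicate 3 gave 0.19. The probe set 172721_x_at read 7.65, 8.05, 8.39 and 8.1 in the mutant, against 7.7, 7.7, 8.02 and 7.83 in wild type, with mutant replicate 3 again highest and mutant replicate 1 lowest, and a log2 difference of 0.23 (SE 0.147, adjusted p = 0.673).

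The 3 ced-10 probe sets therefore read differences between 0.06 and 0.33 for 1 gene. The difference of the brightest was smaller than that of 188142_s_at by 0.27 and than that of 172721_x_at by 0.17 on the log2 scale. Neither distance passed (exact two-sided permutation test, p = 0.371 and 0.343, adjusted p = 0.742 each over 8 pairs of probe sets). On single arrays the brightest exceeded 188142_s_at by 1.6 to 1.68 in wild type and by 0.95 to 1.83 in the mutant. Averaged over its 3 probe sets, ced-10 had a log2 difference of 0.21 (adjusted p = 0.587 in limma). In the other pairs of probe sets, of ced-1, ced-2, ced-5 and ced-6, the distance ran from -0.055 to 0.045, with exact p from 0.543 to 0.914.

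**Figure D3:**
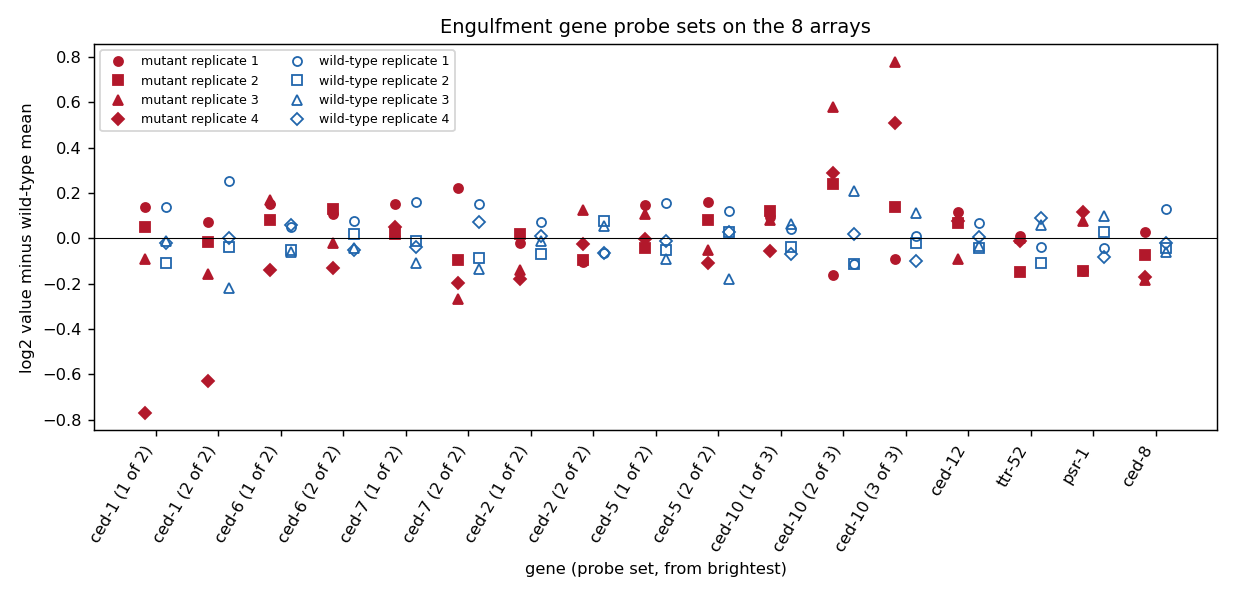
Log2 value minus the wild-type mean of the same probe set (y axis) for the 17 probe sets of the 10 genes (x axis), with 1 point per array, mutant filled and wild type open, and a marker shape per replicate number. Points lie mostly within 0.2 of the wild-type mean. The ones farther out include ced-1 on mutant replicate 4, at -0.77 and -0.63, and the dimmer ced-10 probe sets on mutant replicates 3 and 4.

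The mutant arrays were more spread than the wild-type arrays in most of these probe sets. The SD over the 4 mutant arrays exceeded that over the 4 wild-type arrays in 13 of the 17, beside 67.3% of all probe sets. The median SD was 0.121 in the mutant and 0.0868 in wild type for the 17 probe sets, beside 0.154 and 0.113 over all probe sets, so the median spread of the engulfment genes was below that of all probe sets in each group. The comparison was not matched for brightness, and 0 of the 17 were among the dimmest 25% of all probe sets. In the mutant, 5 of the 17 lay above that median over all probe sets. The largest SDs were those of 173720_at of ced-1, 0.413, which 6.22% of all probe sets reached, and of 188142_s_at of ced-10, 0.386, which 7.57% reached. In wild type the SDs of this pair were 0.104 and 0.0868. The others above the median were 189327_s_at of ced-1, 172721_x_at of ced-10 and 193420_s_at of ced-7, with mutant SDs of 0.311, 0.304 and 0.217.

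Taken by pathway, the median log2 difference was 0.062 over ced-1, ced-6 and ced-7, 0.047 over ced-2, ced-5, ced-10 and ced-12, and -0.038 over ttr-52, psr-1 and ced-8. These medians are descriptions of 3 or 4 genes and carry no test. Array by array, the median distance of the 10 genes from their wild-type means was 0.11, 0.02, 0.015 and -0.034 in the mutant, and 0.069, -0.046, -0.021 and -0.016 in wild type. Replicate 1 of each group was thus the highest, and on mutant replicate 4 the values of 7 of the 10 genes lay below their wild-type means. The median log2 value of all probe sets was 7.59 on mutant replicate 1 and between 7.39 and 7.52 on the other 7 arrays.

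The genes that act before, beside and after engulfment were read from 5 lists with 75 measured genes. In these lists 1 gene rose and 0 fell, and the other 74 did not pass (0.672% of all genes passed). At an unadjusted p under 0.05 the count was 4 of 75 (5.33%, beside 10.5% of all genes), and in 3 of 75 genes the groups did not overlap (6.88% of all genes).

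The gene that rose was egl-1, which encodes the BH3-only protein that sets the caspase pathway going and whose transcription the p53 orthologue CEP-1 raises after DNA damage in the germ line. Its values were 8.02, 8.12, 7.99 and 7.61 in the mutant and 7.03, 6.91, 6.85 and 6.75 in wild type, with every mutant array above every wild-type array. Of all genes, 0.532% rose. The level of egl-1 was 2.07-fold higher (log2 difference 1.05, SE 0.116, adjusted p = 0.00579 in limma). The other 11 of 12 genes of the cell death machinery upstream of engulfment, which included ced-3, ced-4 and ced-9, did not pass, and the median of that list was 0.03. Among them cep-1 read -0.005 and ced-13 read 0.04 (adjusted p = 0.994 and 0.903 in limma). The part of CEP-1 in the rise of egl-1 was not tested.

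In the list of corpse signals and phosphatidylserine exposure, 0 of 5 genes passed in limma, with a median log2 difference of 0.047. At an unadjusted p under 0.05 the count was 1 of 5. The shares over all genes were 0.672% and 10.5%. The gene nrf-5 encodes a secreted lipid-binding protein that acts with TTR-52. It read 9.39, 9.18, 9.04 and 9.44 in the mutant and 8.92, 8.83, 8.88 and 8.97 in wild type, and its groups did not overlap (log2 difference 0.36, SE 0.0969, adjusted p = 0.19 in limma). The exact two-sided permutation test gave p = 0.0286, the smallest that 70 assignments allow. That p restates the lack of overlap, which 6.88% of all genes showed, and nrf-5 was named for its small p on these same arrays. The scramblase gene scrm-1 had 3 probe sets, at log2 differences of 0.18, 0.26 and 0.14 (adjusted p = 0.668, 0.255 and 0.643 in limma). On the probe set at 0.26, which does not stand for the gene in the counts, the groups did not overlap either (exact two-sided permutation test, p = 0.0286). Of all probe sets, 6.48% had groups without overlap.

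Among the other engulfment receptors and cytoskeleton regulators, 0 of 17 genes passed in limma, also 0 at an unadjusted p under 0.05 (0.672% and 10.5% of all genes). The log2 differences ran from -0.12 for mig-2, a Rac-like GTPase, to 0.17 for sli-1, a Cbl-type regulator. The gene unc-73, whose product is a Rac exchange factor of the Trio type, read 0.15 (adjusted p = 0.615), and its 4 further probe sets lay between -0.08 and 0.045. The integrin alpha gene pat-2 read 0.13 (adjusted p = 0.691), and 0.29 on its second probe set (adjusted p = 0.723).

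The phagosome maturation list held 33 measured genes, of which 0 passed in limma and 1 had an unadjusted p under 0.05 (0.672% and 10.5% of all genes). That gene was rabx-5, which encodes an exchange factor of the Rabex-5 type for the early endosomal GTPase RAB-5. It read 6.53, 6.72, 7.1 and 6.77 in the mutant and 6.95, 7.09, 7.29 and 7.31 in wild type, a log2 difference of -0.38 (SE 0.13, adjusted p = 0.339), and its second probe set read -0.063 (adjusted p = 0.861). For rme-6, another RAB-5 exchange factor, the mutant arrays lay between 7.9 and 8.02 and the wild-type arrays between 8.04 and 8.09, without overlap, at a log2 difference of -0.13 (SE 0.0623, adjusted p = 0.57). The value of rab-7, the late endosomal GTPase, was -0.32 (adjusted p = 0.573); it was named after its value was seen. The median of the list was -0.01.

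The lysosomal degradation list had 0 of 8 genes past the threshold in limma and 1 at an unadjusted p under 0.05 (0.672% and 10.5% of all genes). This was nuc-1, the DNase II that degrades the DNA of engulfed corpses, with 11.59, 11.32, 11.58 and 11.27 in the mutant and 11.11, 11.06, 11.28 and 11.1 in wild type. Mutant replicate 4 lay just below wild-type replicate 3, and the log2 difference was 0.3 (SE 0.0966, adjusted p = 0.296). The gene scav-3, which encodes a lysosomal membrane protein, read 0.16 (adjusted p = 0.581).

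**Figure D4:**
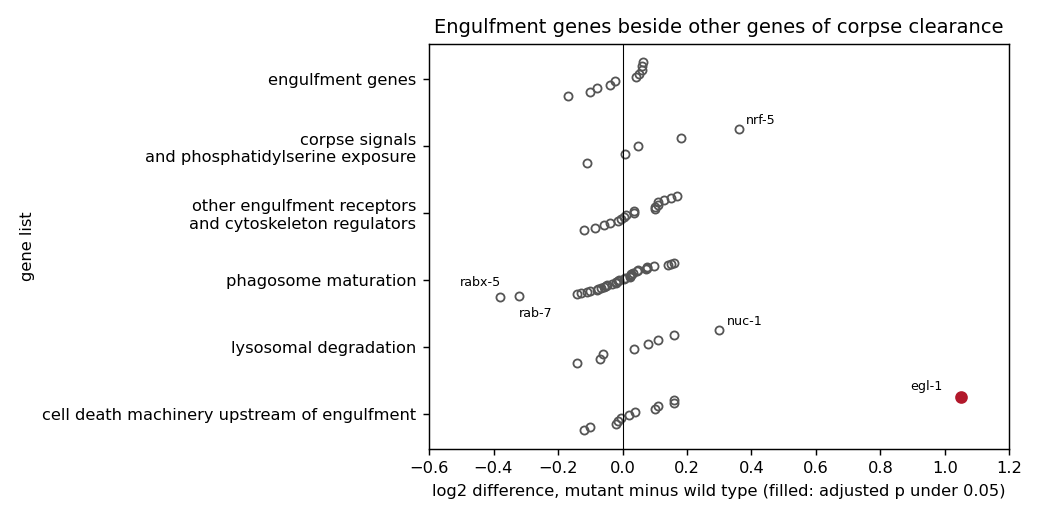
Log2 difference between ercc-1 mutant and wild type (x axis) for the 10 engulfment genes and the 75 genes of 5 lists of corpse clearance (y axis), 1 point per gene. The filled point is egl-1 at 1.05, the gene with an adjusted p under 0.05, and the engulfment genes lie between -0.17 and 0.065.

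The 10 genes do not lie together in the genome. By RefSeq, ced-2, ced-5, ced-10 and psr-1 are on chromosome IV, ced-6, ced-7 and ttr-52 on chromosome III, ced-1 and ced-12 on chromosome I and ced-8 on chromosome X. Among the protein-coding genes up to 5 places away on either side, 88 were measured. Of these 1 passed in limma (1.14%, beside 0.672% of all genes) and 7 had an unadjusted p under 0.05 (7.95%, beside 10.5%). The gene that passed was C48B4.12, 4 places from ced-7. It read 8.99, 8.88, 8.76 and 9 in the mutant against 8.24, 8.07, 8.43 and 8.42 in wild type, a log2 difference of 0.62 (adjusted p = 0.0335). This look at neighbours was added after the data were seen.

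No detection call was used, so the presence of a cell type was not checked from its markers. The summed linear signal of 17 oocyte and early embryo genes ran from 89373 to 95555 in the mutant and from 86195 to 95340 in wild type, so it overlapped between groups. That of 7 hypodermis genes ran from 29052 to 31821 in the mutant and from 27728 to 28739 in wild type, without overlap, while 0 of the 7 passed in limma and 0 had an unadjusted p under 0.05. All 7 had a higher mean in the mutant as deposited and after quantile normalization, and 4 of them after median centring of the arrays. The body wall muscle list had 7 of 7 genes higher in the mutant as deposited, and 6 after centring, with a median log2 difference of 0.21, 0 passing in limma and 2 with an unadjusted p under 0.05. The pharynx list had 6 of 6 higher under both scales, with a median log2 difference of 0.3, 0 passing in limma and 3 with an unadjusted p under 0.05. The summed signals of these last lists overlapped between groups, from 20680 to 27946 against 20187 to 21698 for muscle and from 1499 to 2103 against 1255 to 1569 for pharynx. Over all genes 0.672% passed in limma and 10.5% had an unadjusted p under 0.05. Other lists were mostly higher as deposited too. The count was 7 of 8 for intestine, 6 of 7 for neurons, 8 of 9 for male tail and neurons, and 3 of 3 for coelomocytes. After centring, 3, 5, 5 and 1 of them were higher, in that order. Their summed signals overlapped between groups, and 1 gene of the male list passed in limma. The median log2 difference of all probe sets was 0.027 as deposited and -0.063 after median centring. The part of these lists in the values of the engulfment genes was not tested. The ercc-1 probe set had means of 9.84 ± 0.0737 for the mutant and 9.85 ± 0.124 for wild type (SD over 4 arrays, adjusted p = 0.977 in limma). It does not check the labels, since the allele and the place of the probes in the gene are not known here.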

How the data were processed

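The authors deposited 1 table of values per probe set and array, taken as log2 expression since they range from 0 to 14.38 (no source states the base). The values came from Affymetrix Expression Console 1.1, per the submitters' processing notes; how they were summarised, normalized and background corrected is not given in the sources used here. No detection call was used and no further normalization was applied. Gene names are those of the platform annotation (20766 with 1 gene, 887 with several, 895 with none).

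All 22548 probe sets entered 1 fit in limma 3.58.1 (R 4.3.3; eBayes after lmFit, 4 arrays against 4, two-sided, Benjamini-Hochberg adjustment over all probe sets), a step tested on simulated data. Single values and pairs of probe sets of a gene were compared with an exact permutation test (two-sided, 70 ways to split the arrays, smallest p 0.0286). The text names all 10 engulfment genes with every probe set, the called genes of each pathway list or else the 2 with the smallest p, and ercc-1. Named as well are mig-2 and sli-1, at the ends of their list's range, rab-7, and ced-3, ced-4, ced-9, ced-13 and cep-1. Members and lists were chosen with earlier results of these data known. Of the 79 genes written into the pathway lists, anoh-1, rac-2, rho-1 and slc-36.1 matched no single-gene probe set. As alternatives, arrays were centred on their medians or quantile normalized, the dimmest 25% of probe sets or those with the suffix _x_at or _s_at were dropped, and the fit used array weights, a trended robust variance or a block for the replicate number. Others were thresholds of 0.1 and 0.01, the mean over a gene's probe sets, and the omission of each array. For arrays, their number limits the precision.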

Additional observations from a re-analysis of the deposited data

Results flagged for a closer look

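In 2 of the groups of 4 arrays examined, 1 array stood far from the other 3, with a gap to its nearest neighbour that exceeded Dixon's 95% critical value as a share of the group's range. Chance alone gives this in about 1 of 20 groups, and 70 groups were examined. For ttr-52, mutant replicate 2 read 6.98 where the other mutant arrays read 7.12 to 7.14. For rme-6, mutant replicate 1 read 8.02 where the others read 7.9 and 7.91. Both gaps are small, 0.14 and 0.11 on the log2 scale.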

How the results depend on the processing

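No engulfment gene passed under any alternative: the 271 recomputed values of the 17 probe sets had adjusted p of 0.145 or more, the lowest for 172721_x_at of ced-10 with array weights. With egl-1 as the 1 pathway gene called, that count stayed at 1 except with array weights, where it was 3 and nrf-5 (0.3) and rabx-5 (-0.43) passed (adjusted p = 0.0314 and 0.0297, the lowest of 16 alternatives that reached 0.557 and 0.705). The weight of mutant replicate 2 was 5.05 against 0.322 to 0.624 for the other mutant arrays. Differences near 0 turned sign with the scaling. After median centring ced-6, ced-7, ced-5, ced-10 and ced-12 read -0.025, -0.028, -0.037, -0.03 and -0.048, and the further probe sets of ced-6 and ced-5 -0.07 each. After quantile normalization ced-10 read -0.0036, and those further probe sets of ced-6 and ced-5 -0.018 and -0.05. With array weights ced-1, ced-2 and ced-5 read 0.024, 0.0017 and -0.0099. As the mean over its probe sets ced-7 read -0.011. Without mutant replicates 1 and 4 together, chosen after seeing the data, ced-12 read -0.012 and the further ced-2 probe set 0.015.

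When each array was left out in turn, ced-1 ran from -0.27 to 0.033, psr-1 from -0.069 to 0.017 and ercc-1 from -0.053 to 0.041. The further probe sets ran from -0.016 to 0.071 for ced-6, -0.075 to 0.0017 for ced-2 and -0.04 to 0.063 for ced-5. The distance between a gene's probe sets ran from -0.023 to 0.084 for ced-1, -0.0042 to 0.082 for ced-6, -0.11 to 0.015 for ced-2 and -0.0092 to 0.084 for ced-5; no pair passed in any of these. Over the whole array 150 probe sets were called, 80.7% of them higher, and 64.7% higher after median centring. The count ran from 29 to 268 without 1 array, and was 46 without the suffixes _x_at and _s_at, 1423 with array weights, and 246 and 32 at thresholds of 0.1 and 0.01. The cause of these shifts was not tested. Same-numbered arrays did not all deviate together (correlations of deviations 0.47, 0.014, 0.04 and 0.2), so the numbers were not taken as pairs; with the replicate block 125 probe sets and 0 engulfment genes were called.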
